A study of Mus musculus with 8 samples.

Results

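The 9 genes Cd79a, Cd79b, Ms4a1, Pax5, Ighm, Ighd, Igkc, Igha and Jchain, which mark B cells and antibody-secreting cells, were followed through bulk RNA-seq of tumor-associated macrophages (TAMs). They were picked by gene name from 26939 genes, and the question was whether Cd79b moved with the other B cell genes or alone. The TAMs were gated as viable cells positive for CD45, CD11b and F4/80 and negative for Gr-1, from tumors of the mouse breast cancer line EO771 grown in the mammary fat pad of adult female mice and collected at day 21. There were 4 groups of 2 libraries, from wild-type (WT) C57BL/6J mice or Unc93b1 3d/3d mice, each as control or after αMARCO. Unc93b1 3d/3d is a mutation of the chaperone UNC93B1 that leaves TLR3, TLR7 and TLR9 without function in every cell of the mouse, B cells included. αMARCO, the rat antibody ED31 against the macrophage scavenger receptor MARCO, was given at 100 µg per dose from day 3 to day 12. The labels call the controls untreated and their libraries PBS, while the methods name a rat IgG1 isotype antibody, so the control injection is not settled. Control libraries were pools of 3 mice each. The genotype field of the second Unc93b1 3d/3d control library reads 3d/4d where its title reads 3d/3d.

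Naive B cells carry a receptor made of immunoglobulin heavy and light chains that cannot signal on its own. CD79A and CD79B, encoded by Cd79a and Cd79b, form the heterodimer that carries the signal into the cell, and each has a cytoplasmic stretch with a pair of tyrosines that are phosphorylated after antigen binding. In tumors, B cells and plasma cells lie among the other immune cells, and rearranged immunoglobulin genes are best known from the B lineage. CD11b and F4/80 are not markers of conventional B cells, though B-1 cells can carry CD11b.

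Total counts ran from 15182618 to 26411936 per library. The libraries of a group disagreed beyond counting noise, with a chi-square per degree of freedom of 7.5 to 12.0 in 3 groups and of 102 in Unc93b1 3d/3d αMARCO, so that pair stood apart from each other and results that rest on it are also given without each of its libraries. Macrophage genes were abundant in every library, with a summed level of 18430 to 31320 CPM (counts scaled to library size by TMM) over 14 genes. By contrast, 7 of the genes that define B cells (Ebf1, Blk, Cr2, Fcer2a, Vpreb3, Fcmr and Tnfrsf13c) lay between 0 and 0.369 CPM in all 8 libraries, and none had more than 7 counts in a library. All but Ebf1 and Blk were named after these low values were seen. Other B cell genes were higher, so these 7 do not stand for all of them. Tnfrsf13b was at 39.8 to 63.6 CPM, Bank1 at 11.7 to 24.7 and Cd22 at 9.30 to 31.3. Pax5 was at up to 2.98 and Ms4a1 at up to 1.84. In bulk RNA, fewer cells of a type and less RNA per cell cannot be told apart.

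The coding stretches of the paired tyrosines are shown because Cd79a and Cd79b encode partners of a single complex, yet their RNA levels differed here by a wide margin. They were read 5′ to 3′ from GENCODE M21 transcripts on GRCm38, and capitals mark the tyrosine codons. The Cd79a stretch spans the junction of exons 4 and 5, the last exons, at chr7:24901296-24901469 on the plus strand, and the Cd79b stretch spans exons 5 and 6, also the last, at chr11:106311867-106312012 on the minus strand. Both are 45 coding bases long, they differ at 14 positions and are 68.9% identical.
Cd79a: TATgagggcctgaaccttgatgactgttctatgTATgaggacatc
Cd79b: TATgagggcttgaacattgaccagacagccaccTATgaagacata

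Cd79b (ENSMUSG00000040592) differed with genotype and, in WT, with treatment. It had 696 and 743 counts in WT control, 354 and 403 after αMARCO in WT, 36 and 57 in the Unc93b1 3d/3d controls, and 84 and 91 after αMARCO in that genotype. The mean level was 38.9 ± 3.16 CPM (SD, n = 2) in WT control, 16.4 ± 0.937 in WT αMARCO, 4.98 ± 1.76 in Unc93b1 3d/3d αMARCO and 2.58 ± 0.446 in Unc93b1 3d/3d control. Every WT library was above every Unc93b1 3d/3d library, and no group overlapped another.

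Cd79a (ENSMUSG00000003379) stayed near the limit of detection. Its counts were 6 and 6 in WT control, 5 and 16 after αMARCO in WT, 9 and 6 in the Unc93b1 3d/3d controls, and 3 and 1 after αMARCO in that genotype. The control groups overlapped, as did the WT groups. Both Unc93b1 3d/3d αMARCO libraries (0.133 and 0.0684 CPM) lay below every other library, the lowest of which was at 0.242 CPM. Cd79a was too low to be tested in any comparison of a pair of groups.

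Per length, Cd79b was above Cd79a in every library. In deposited FPKM (counts scaled by gene length and library size), Cd79b ranged from 1.58 to 28.4 and Cd79a from 0.0466 to 0.423. The Cd79b level was 118 and 126 times that of Cd79a in the WT control libraries, with exact 95% counting intervals of 54.0 to 323 and 57.7 to 345. In the Unc93b1 3d/3d control libraries the ratio was 4.07 (1.93 to 9.62) and 9.67 (4.18 to 27.5). These intervals did not overlap those of WT control, although they cover counting error only. Under αMARCO the ratio was 72.1 and 25.7 in WT and 28.5 and 92.7 in Unc93b1 3d/3d, where the Cd79a count of 1 in a library gave an interval of 16.2 to 3699, so no order of the αMARCO groups can be read from it.

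**Figure D1:**
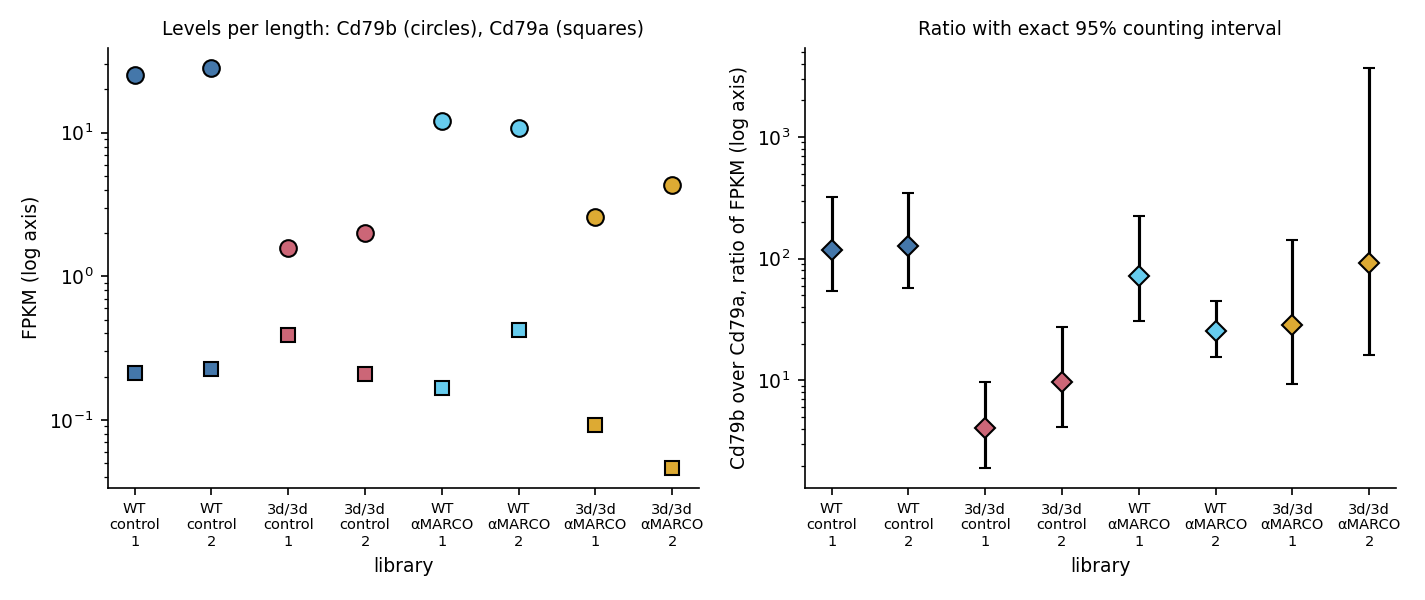
Left, deposited FPKM of Cd79b (circles) and Cd79a (squares) in each of 8 libraries on a log axis; right, their ratio with its exact 95% counting interval on a log axis. Cd79b lies above Cd79a in every library, and the ratios of 118 and 126 in WT control stand above the 4.07 and 9.67 of Unc93b1 3d/3d control.

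Ms4a1 and Pax5 mark B cells by a surface protein and by a lineage factor. Ms4a1 (ENSMUSG00000024673) encodes CD20. It had 26 and 9 counts in WT control, 38 and 41 after αMARCO in WT, 24 and 7 in the Unc93b1 3d/3d controls, and 17 and 15 after αMARCO in that genotype. The libraries of each control group differed more from each other than the control groups did. Pax5 (ENSMUSG00000014030), the transcription factor that holds the B cell identity, had 10 and 16 counts in WT control, 19 and 52 after αMARCO in WT, 35 and 19 in the Unc93b1 3d/3d controls, and 67 and 4 after αMARCO in that genotype. The αMARCO groups overlapped, with the highest and the lowest of all 8 libraries in the same group, so Pax5 showed no common order across the groups.

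Ighm (ENSMUSG00000076617), the constant region of IgM, had the highest level of the 9 genes. Its counts were 1358 and 2026 in WT control, 1088 and 1552 after αMARCO in WT, 323 and 425 in the Unc93b1 3d/3d controls, and 627 and 650 after αMARCO in that genotype. In the same sequence of groups the mean CPM was 91.9 ± 28.7 (SD, n = 2), 56.7 ± 5.80, 20.9 ± 0.907 and 36.1 ± 11.8, so the groups ranked as for Cd79b. Ighd (ENSMUSG00000104213), the constant region of IgD found on mature naive B cells, had 18 and 19 counts in WT control against 3 and 4 in Unc93b1 3d/3d control. Under αMARCO it had 8 and 7 counts in WT and 6 and 6 in Unc93b1 3d/3d, where the CPM values of the genotypes overlapped.

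The genes of secreted or light chain immunoglobulin were low and differed from Ighm in pattern. Igkc (ENSMUSG00000076609), the kappa light chain constant region, had 10 and 75 counts in WT control, 51 and 42 after αMARCO in WT, 6 and 3 in the Unc93b1 3d/3d controls, and 3 and 3 after αMARCO in that genotype. Igha (ENSMUSG00000095079), the constant region of IgA, had 0 and 2 counts in WT control, 23 and 64 in WT αMARCO, and 0 in all 4 Unc93b1 3d/3d libraries, where the table with the Unc93b1 3d/3d controls has no row for it and was read as 0. Jchain (ENSMUSG00000067149), which joins IgM or IgA into polymers, had 2 and 12 counts in WT control, 16 and 19 in WT αMARCO, 4 and 0 in Unc93b1 3d/3d control, and 0 and 5 in Unc93b1 3d/3d αMARCO. Both WT αMARCO libraries were above all Unc93b1 3d/3d libraries for these 3 genes, whereas the WT control libraries were spread, with Igkc and Jchain much higher in the second library than in the first.

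**Figure D2:**
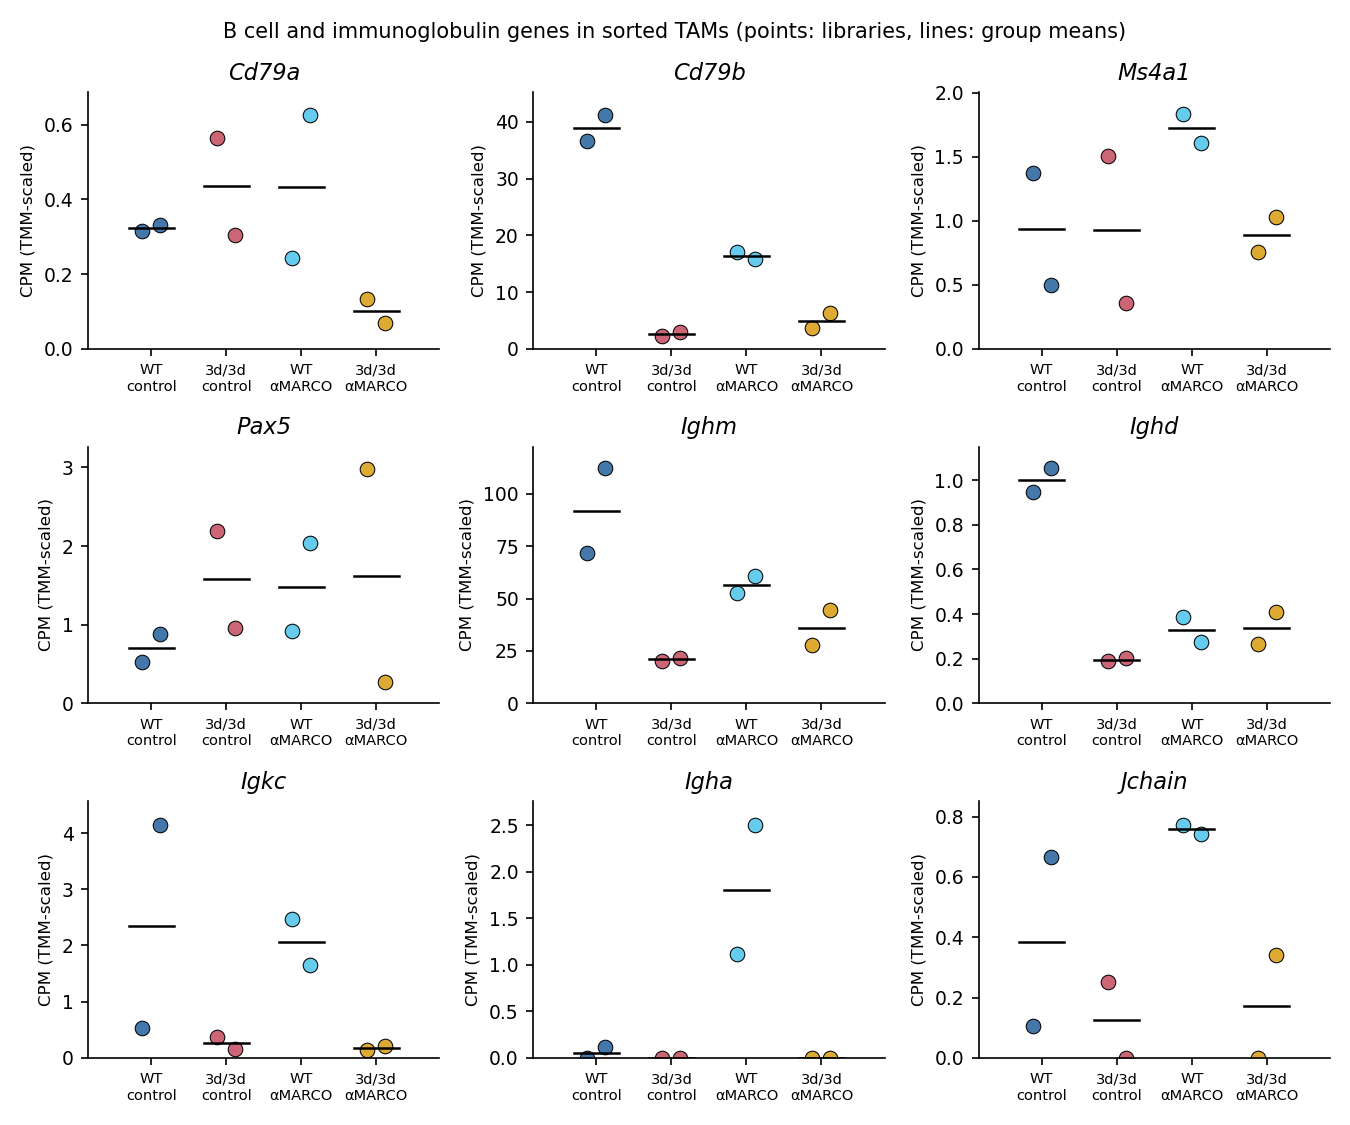
TMM-scaled CPM of the 9 genes in each library (points) of 4 groups, with the group mean as a line; each panel has its own axis from 0. Cd79b and Ighm fall in the order WT control, WT αMARCO, Unc93b1 3d/3d αMARCO, Unc93b1 3d/3d control, while Cd79a, Ms4a1 and Pax5 do not.

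Ighm and Igkc encode the chains of the same antibody, so their levels per length can be set side by side. Per length, Ighm was 38.3 and 7.62 times as high as Igkc in WT control, 6.02 and 10.4 after αMARCO in WT, 15.2 and 40.0 in the Unc93b1 3d/3d controls, and 59.0 and 61.1 after αMARCO in that genotype. The excess of Ighm held in every library, and it was smallest in the 3 libraries with the most Igkc counts.

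The difference between the genotypes without αMARCO was read from WT control against Unc93b1 3d/3d control. Cd79b was 14.8 times as high in WT (log2 fold change 3.89 ± 0.18 SE, adjusted p = 3.16e-06 by edgeR's quasi-likelihood test with Benjamini-Hochberg adjustment). Ighm was 4.34 times as high in WT (2.12 ± 0.22, adjusted p = 0.00282) and Ighd 4.91 times (2.29 ± 0.70, adjusted p = 0.0483). Ms4a1 did not pass the test, with a log2 fold change of 0.03 ± 0.76 (adjusted p = 0.984 by the same test). Pax5 did not pass it either, at -1.16 ± 0.59 (adjusted p = 0.205 by the same test), and the other 4 genes were too low to be tested.

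So 3 of the 5 members tested were higher in WT control and none was lower, against 6.58% of all 15600 genes called higher, 6.4% called lower and 13.0% in either direction. A call required an adjusted p no larger than 0.05 together with a log2 fold change of 0.5 or more in size. The members that passed the filter are not all members, and a low gene passes it only through its higher group. Ighd, at 3 and 4 counts in Unc93b1 3d/3d control, passed it only through the WT libraries. A gene of this kind had to differ to be tested, so the Ighd call is no support for a change of the members. The Cd79b call held under all 10 alternatives, with adjusted p from 3.58e-88 to 0.000596. The Ighm call was lost without the first (2.08, adjusted p = 0.105) or the second Unc93b1 3d/3d control library (2.15, adjusted p = 0.0774) by edgeR, over a range of 4.9e-55 to 0.105. The Ighd call was lost under 7 of 9 alternatives, among them without each library in turn (2.23 to 2.38) and with DESeq2 (adjusted p = 0.174), over a range of 0.0465 to 0.212.

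**Figure D3:**
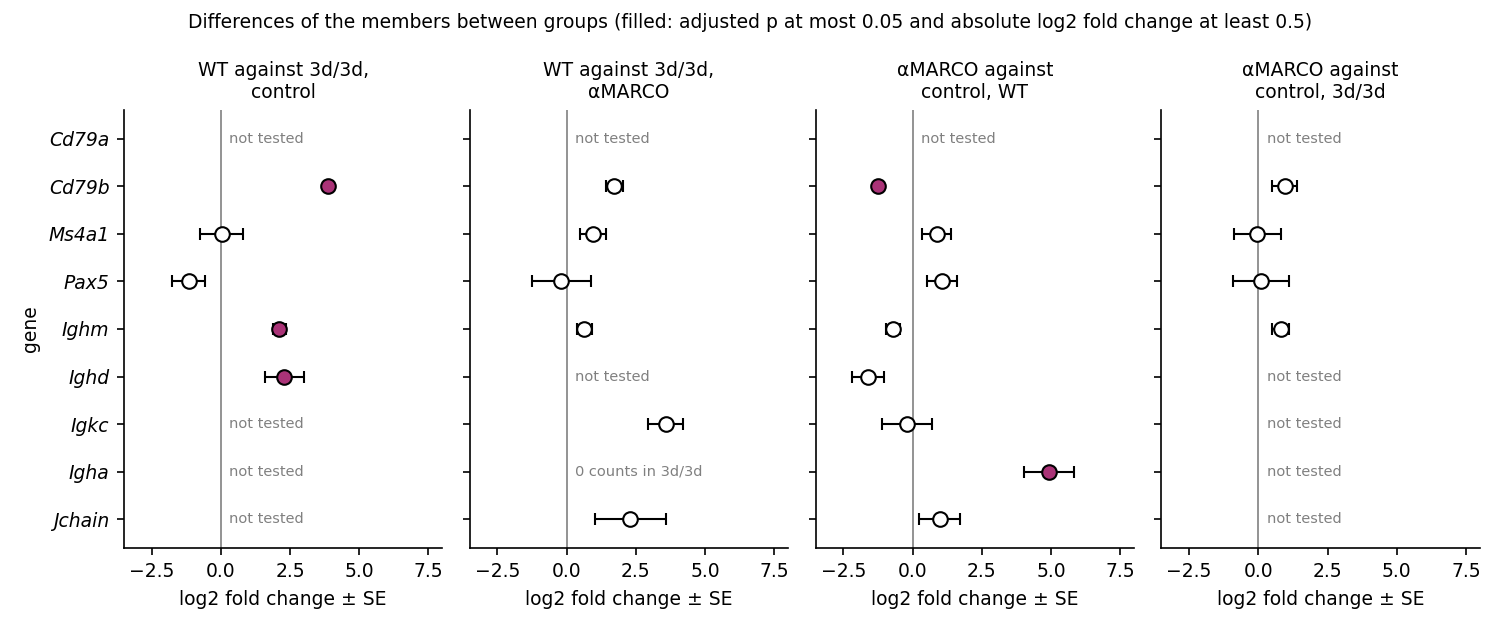
Log2 fold change with SE of each member in 4 comparisons from edgeR; filled points passed the threshold, genes too low were not tested, and Igha is not drawn where the Unc93b1 3d/3d libraries held 0 counts. Cd79b, Ighm and Ighd are filled in the control comparison, where Ighd passed the filter only through its WT libraries. Cd79b and Igha are filled in the WT treatment comparison, where Igha passed it only through its αMARCO libraries.

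In WT mice, Cd79b was lower after αMARCO. It fell 2.37-fold (log2 fold change -1.24 ± 0.11 SE, adjusted p = 0.000125 by edgeR's quasi-likelihood test). Igha had 2 counts over the WT controls and 87 after αMARCO, a ratio of 34.8 after scaling to library size with an exact 95% counting interval of 9.35 to 292 (adjusted p = 0.00294 by edgeR). It passed the filter on low counts only through the αMARCO libraries, so a gene of this kind had to differ to be tested, and its call is no support for a change of the members. Ighm had a log2 fold change of -0.70 ± 0.25 (adjusted p = 0.102 by edgeR) and Ighd of -1.60 ± 0.58 (adjusted p = 0.0573 by edgeR), and neither passed. Ms4a1 at 0.87 ± 0.51, Pax5 at 1.07 ± 0.54, Jchain at 0.98 ± 0.75 and Igkc at -0.19 ± 0.91 did not pass either (adjusted p = 0.151 to 0.894 by edgeR).

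Of the 8 members tested, 1 was higher and 1 lower, against 8.91% of 15630 genes called higher, 11.8% called lower and 20.7% in either direction, so the share of members called was near the background. Cd79b was lost only with all 8 libraries in one model (adjusted p = 0.0603 by edgeR, range 3.11e-22 to 0.0603). Igha was lost there (adjusted p = 0.108) and without the second WT αMARCO library (4.21, adjusted p = 0.0589 by edgeR), over a range of 1.55e-08 to 0.108, and its fitted log2 value rose to 8.32 without the second WT control library, which left the control at 0. Ighm fell by 0.99 without the first WT control library (adjusted p = 1.25e-07 by edgeR) and passed with DESeq2 (adjusted p = 0.000969), over a range of 1.25e-07 to 0.405. Without that library 5 members were called, with Ms4a1 higher (1.77, adjusted p = 0.0254 by edgeR, range 0.0254 to 0.623) and Igkc lower (-1.03, 0.0335), while without the second WT control library Igkc was higher (1.94, 0.00868), over a range of 0.00868 to 0.976.

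In Unc93b1 3d/3d mice, αMARCO did not give a call by edgeR's quasi-likelihood test. Cd79b had a log2 fold change of 0.95 ± 0.45 (adjusted p = 0.823 by edgeR) and Ighm of 0.80 ± 0.29 (adjusted p = 0.823), with both αMARCO libraries above both controls for each gene. Ms4a1 at -0.04 ± 0.84 and Pax5 at 0.10 ± 1.02 overlapped between the groups. All 4 members tested were thus not called, where edgeR called 0 of 15428 genes (0.0%), 744 genes had an unadjusted p of at most 0.05, and DESeq2 called 52. Without the first αMARCO library, 5500 genes were called, among them Cd79b (1.27, adjusted p = 0.00927 by edgeR), Ighm (1.09, adjusted p = 5.68e-06) and Pax5, which was lower (-2.48, adjusted p = 0.0269). Without the second αMARCO library 571 genes and no member were called. The adjusted p of Cd79b ranged from 0.00927 to 1.0 over its alternatives, that of Ighm from 5.68e-06 to 1.0 and that of Pax5 from 0.0269 to 1.0.

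WT αMARCO against Unc93b1 3d/3d αMARCO kept the direction of the control comparison for Cd79b. Cd79b had a log2 fold change of 1.72 ± 0.32 (adjusted p = 0.356 by edgeR), Ighm of 0.64 ± 0.27 (0.709) and Igkc of 3.58 ± 0.63 (0.340), all with WT above Unc93b1 3d/3d in both libraries. Igha was at least 10.7-fold higher in WT, against a floor of 3 counts per library where Unc93b1 3d/3d had none (adjusted p = 0.393 by edgeR), and the limit was 6.57 from the first WT library alone and 14.8 from the second. Jchain at 2.30 ± 1.28, Ms4a1 at 0.95 ± 0.48 and Pax5 at -0.20 ± 1.06 did not pass either (adjusted p = 0.709 to 0.951 by edgeR).

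None of the 7 members tested was called, where edgeR called 0 of 15722 genes (0.0%), 1076 had an unadjusted p of at most 0.05, and DESeq2 called 195, with 3 members among them. These were Cd79b (1.74, adjusted p = 0.0042 by DESeq2), Igkc (3.64, 0.0392) and Igha (0.00351). Without the first Unc93b1 3d/3d αMARCO library 6366 genes and 4 members were called, and without the second 1252 genes and 5 members. Cd79b was called both times, at a log2 fold change of 1.41 and 2.11. Each of these fits left 1 Unc93b1 3d/3d αMARCO library, which adds no spread of its own. Cd79b was called under 5 of its 10 alternatives. Igkc and Igha were also called both times, over ranges of 0.000232 to 1.0 and 2.29e-05 to 1.0. Pax5 was called as higher in WT only without the first of these libraries (2.43, adjusted p = 0.00877 by edgeR, range to 1.0), and Ighm (2.46e-06, range to 1.0) and Jchain (0.0187, range to 1.0) only without the second. Igkc, Igha and Jchain passed the filter on low counts here only through the WT libraries. Genes of this kind had to differ to be tested, so their calls are no support for a change of the members. The 4 comparisons share libraries, so their values are not independent of each other.

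Cd79b was thus lower in WT under αMARCO and, in values that were not called, higher in Unc93b1 3d/3d. The difference of the αMARCO effects between genotypes was -2.18 ± 0.37 on the log2 scale for Cd79b (adjusted p = 0.281 by edgeR over all 8 libraries), where edgeR called 0 of 16620 genes (0.0%) although 2549 had an unadjusted p of at most 0.05, and DESeq2 called 200. For Cd79a the same difference was 2.37 ± 1.23 (adjusted p = 0.359 by edgeR), on at most 16 counts in a library.

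The libraries in which Cd79b was high can be compared with all genes. By Pearson's r of log2 CPM over the 8 libraries, given as a description since libraries of a group share genotype and treatment, Ighm stood at rank 28 of 16619 genes (r = 0.968), Ighd at rank 237 (0.879) and Igkc at rank 685 (0.767). Jchain stood at rank 2117 (0.550) and Igha at rank 3408 (0.404). Ms4a1 (rank 6045, r = 0.186), Cd79a (rank 6743, r = 0.131) and Pax5 (rank 13099, r = -0.379) were far from it. By this measure Cd79b lay near Ighm and Ighd and far from Cd79a, Ms4a1 and Pax5, and the difference between the genes' changes was not tested. Cd79a held 1 to 16 counts per library, Ms4a1 7 to 41 and Pax5 4 to 67, while Ighd held 3 to 19. How far counting error lowers r for such genes was not tested.

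The 10 genes most like Cd79b were Nxpe4, Fpr2, Clec4a1, Sirpb1a, Siglece, Lcp2, Pparg, Itgb2, Clec2g and Stard7, with r from 0.982 to 0.992. Several are known from myeloid cells, such as the formyl peptide receptor gene Fpr2, the lectin receptor gene Clec4a1 and the integrin gene Itgb2. Fpr2 was at 108 and 118 CPM in WT control, 73.2 and 70.6 after αMARCO in WT, 18.0 and 15.3 in the Unc93b1 3d/3d controls, and 23.6 and 29.5 after αMARCO in that genotype, which is the group order of Cd79b. With Spearman's rho in place of r, 2 of these 10 genes remained among the first 10.

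**Figure D4:**
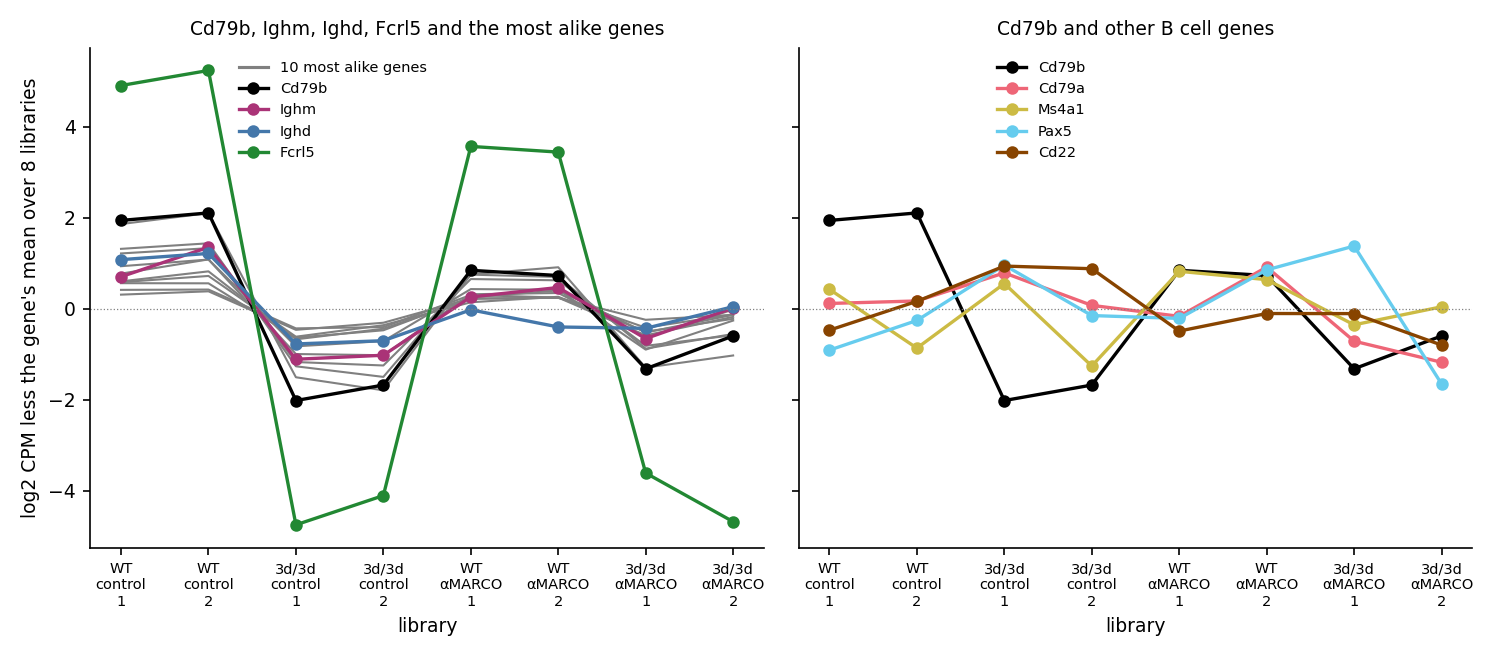
Log2 CPM of each gene less its mean over 8 libraries, by library. Left, Cd79b with Ighm, Ighd, Fcrl5 and the 10 genes most like it; right, Cd79b with Cd79a, Ms4a1, Pax5 and Cd22, which do not follow it (r from -0.53 to 0.186).

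The other B cell genes were taken from a list of 35, which holds 6 of the members and also genes that macrophages express, such as Cd74, Cd72 and Cd40. In control libraries 11 of the 25 genes tested were higher in WT and 2 were lower, with a median log2 fold change of 0.46 against 0.00 for all genes tested. Fcrl5, Spib and Ighd, which are among the 11, passed the filter on low counts only through the WT libraries. They had to differ to be tested, so they are no support for a change of the list. Of all 15600 genes, 6.58% were called higher and 6.4% lower. Fcrl5, an Fc receptor-like protein of B cells, had the largest fold change of the list. It had 3501 and 4191 counts in WT control, 1509 and 1707 after αMARCO in WT, 2 and 5 in the Unc93b1 3d/3d controls, and 9 and 2 after αMARCO in that genotype. Its log2 fold change between the control groups was 9.99 ± 0.24 (adjusted p = 1.08e-07 by edgeR), and in WT it fell by 1.58 ± 0.12 on the log2 scale under αMARCO (adjusted p = 9.18e-05). Between the genotypes under αMARCO it was at 7.87 ± 0.41 (adjusted p = 0.0731 by edgeR), which was called under 8 of 9 alternatives (3.71e-43 to 0.0709). It stood at rank 60 of likeness to Cd79b (r = 0.952).

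Spib, a transcription factor of B cells and plasmacytoid dendritic cells, was higher in WT control by 3.19 on the log2 scale (adjusted p = 0.00294 by edgeR), and Cxcr5, the receptor that leads B cells to follicles, by 2.20 (0.00957). The genes that were lower in WT control were Cd22, an inhibitory receptor of B cells (-1.05 ± 0.20, adjusted p = 0.00935 by edgeR), and Ralgps2 (-1.08, 0.0125). Cd22 was at 11.7 and 18.2 CPM in WT control against 31.3 and 30.0 in Unc93b1 3d/3d control, so it ran opposite to Cd79b. Spib, Cxcr5, Cd22 and Ralgps2 each lost the call with all 8 libraries in one model (adjusted p = 0.0628, 0.0886, 0.141 and 0.0894 by edgeR), which was the highest adjusted p among their alternatives, and Fcrl5 kept it.

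Under αMARCO in WT, 1 of 24 genes of that list tested was higher and 7 were lower, with a median of -0.29 against -0.01 for all genes. Of all 15630 genes, 8.91% were called higher and 11.8% lower. Beside Cd79b and Fcrl5, the lower genes with the largest changes were Spib (-4.55, adjusted p = 0.000367 by edgeR), Btla (-2.38, 0.000791), Cxcr5 (-2.22, 0.00424) and Siglecg (-1.79, 0.00262), and the higher gene was Ralgps2 (1.04, 0.00506). Spib, at 4 and 4 counts in WT αMARCO, passed the filter on low counts only through the WT control libraries. It had to differ to be tested, so its call is no support for a change of the list. Btla and Siglecg encode inhibitory receptors of lymphocytes. With all 8 libraries in one model Btla, Cxcr5, Siglecg and Ralgps2 lost the call (adjusted p = 0.0755, 0.0891, 0.0929 and 0.0978 by edgeR, the highest among their alternatives), and Spib and Fcrl5 kept it.

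B cell receptor signalling and secretion were described by 2 further lists. Of 26 signalling genes tested in controls, 6 were higher in WT and 1 was lower, against 6.58% of all genes called higher and 6.4% called lower. Beside Cd79b, the higher ones were Ptpn6 (0.82, adjusted p = 0.00188 by edgeR), Cd72 (0.79, 0.00319), Cd81 (0.75, 0.0268), Vav2 (0.55, 0.00827) and Lyn (0.50, 0.0102), a kinase that phosphorylates the CD79 tyrosines, and the lower one was Cd22. The Lyn call was lost under 6 of 10 alternatives (log2 0.43 to 0.59 and adjusted p 6.57e-05 to 0.143 by edgeR or DESeq2 over all 10), that of Cd81 under 4 of 10, among them without either WT control library or without the first Unc93b1 3d/3d control library (0.50 to 0.77), and that of Vav2 without the second WT control library (0.45). With all 8 libraries in one model the calls of Ptpn6, Cd72, Cd81, Vav2 and Lyn were lost, and that of Cd79b was not. Under αMARCO in WT, 2 of 26 were higher, Bcl6 (0.64, adjusted p = 0.000756 by edgeR) and Fcgr2b (0.56, 0.00469), and 3 were lower, namely Cd79b, Siglecg and Cd81 (-0.73, 0.000599). That share was near the 20.7% of all genes called in either direction.

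Of 16 plasma cell and secretion genes tested, Irf4 (1.22, adjusted p = 0.00427 by edgeR) was higher in WT control and no other gene was called. Among all genes, 13.0% were called between controls in either direction. Under αMARCO in WT, Sdc1, the plasma cell marker CD138 that other cells also carry, fell by 1.26 (adjusted p = 0.00261 by edgeR), Irf4 by 0.89 (0.00606) and Creld2 by 0.52 (0.00495), so 3 of 16 tested were lower and none was higher, a share near the 20.7% of all genes called in either direction. Without the second WT αMARCO library Irf4 was at -0.71, without the first WT control library Creld2 was at -0.38, without the second Fcgr2b was at 0.42, and without the first WT αMARCO library Ralgps2 was at 0.91, and each was then not called. With all 8 libraries in one model Bcl6, Fcgr2b, Cd81, Irf4 and Creld2 lost the call in WT under αMARCO and Sdc1 kept it. Neither list had a call in the comparisons with Unc93b1 3d/3d αMARCO. There edgeR called 0 of 15428 and 0 of 15722 genes (0.0%), so the absence of calls says nothing about the lists. Counts for these lists without each library of that pair are not given. Of 13 immunoglobulin constant genes, 8 are in the tables. Between controls both of the 2 tested (Ighm and Ighd) were higher in WT, where 6.58% of all genes were called higher. Under αMARCO in WT 1 of 5 tested (Igha) was higher and none was lower, where 8.91% of all genes were called higher. Ighd passed the filter only through the WT controls and Igha only through the αMARCO libraries. Both had to differ to be tested, so these counts are no support for a change of the list. Beyond the members, Ighg2b, of the IgG2b class, had 5 and 17 counts in WT control, 41 and 7 in WT αMARCO and none in Unc93b1 3d/3d, where the controls again have no row. It was at least 3.54-fold higher in WT control and at least 6.66-fold higher in WT αMARCO, against 3 counts per library. From single libraries, an alternative chosen after seeing the data, the limit was 1.55 and 5.53 in WT control and 11.7 and 1.62 in WT αMARCO, so 1 library set most of it each time. Its sequence is similar to that of Ighg2c, and reads shared by these genes were not examined.

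V segment genes give a view of rearranged immunoglobulin. The tables list 25 of them, and their summed counts were 6 and 71 in WT control, 62 and 74 after αMARCO in WT, 9 and 12 in the Unc93b1 3d/3d controls, and 9 and 16 after αMARCO in that genotype. Each of the 3 libraries with more than 16 was led by a heavy and a light chain segment of its own. The second WT control library had 27 counts of Ighv11-2 and 39 of Igkv14-126, a pair known from B-1 cells that bind phosphatidylcholine. The first WT αMARCO library had 10 counts of Ighv8-12 and 25 of Igkv6-23, and the second 35 of Ighv1-12 and 28 of Igkv17-121. The 5 segments with the largest sums (Igkv14-126, Ighv1-12, Igkv17-121, Ighv11-2 and Igkv6-23) had counts in 1 library each.

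V segment counts did not follow Ighm. Heavy chain V counts made up 0.295% and 1.58% of the Ighm count in WT control, 2.21% and 2.64% after αMARCO in WT, 2.79% and 2.82% in the Unc93b1 3d/3d controls, and 1.12% and 1.54% after αMARCO in that genotype. The first WT control library, with 1358 Ighm and 696 Cd79b counts, held 4 heavy chain V counts, while the second, with 743 Cd79b counts, held 32. Cd79b was at 36.7 CPM in the former and at 41.2 CPM in the latter.

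**Figure D5:**
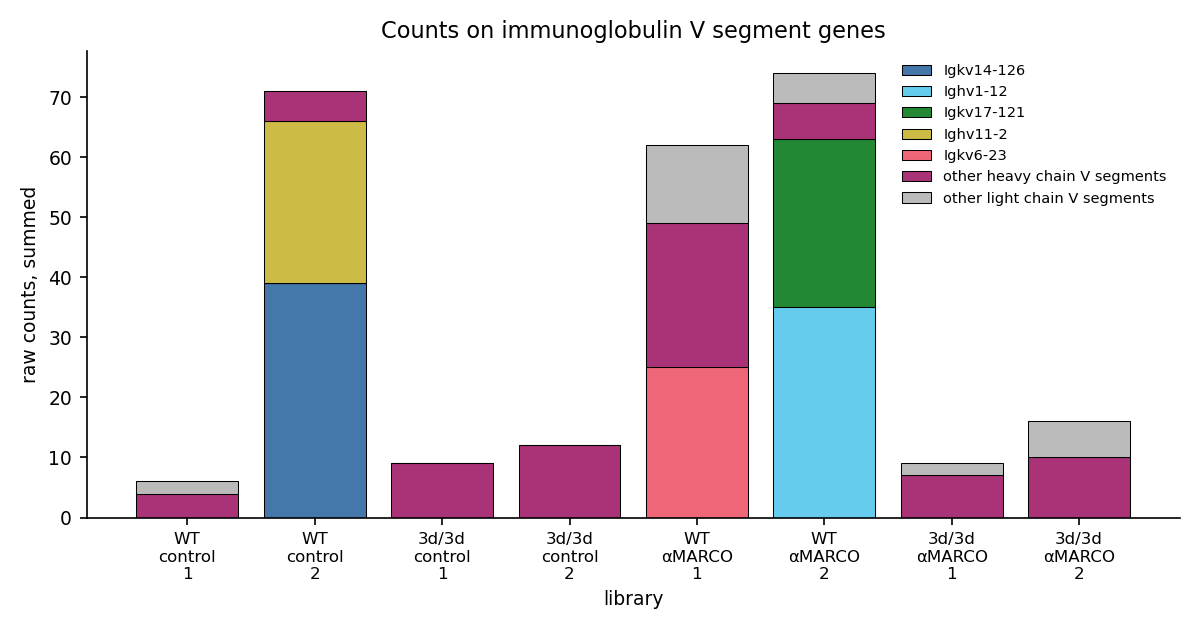
Raw counts on 25 immunoglobulin V segment genes per library, stacked, with the 5 most counted segments in colors of their own. The second WT control library (71) and the WT αMARCO libraries (62 and 74) hold most counts, each from different leading segments, and the other 5 libraries hold 6 to 16.

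Markers of other cells moved with the Cd79b difference between the control groups, where 6.58% of all genes were called higher in WT and 6.4% lower. Of 16 T cell genes tested, 15 were higher in WT and 1 (Cd4) was lower. Their summed level was 205 to 230 CPM in WT control, 82.6 to 102 in Unc93b1 3d/3d control, 23.6 to 40.7 in WT αMARCO and 21.0 to 24.2 in Unc93b1 3d/3d αMARCO. Cd4 alone was at 61.6 and 62.2 CPM in Unc93b1 3d/3d control against 18.7 and 22.1 in WT control. It thus made up most of the Unc93b1 3d/3d control sum. Of 12 NK cell genes 4 were higher in WT control and none was lower, and their sums were 196 to 212 CPM in WT control, 46.6 to 79.5 in Unc93b1 3d/3d control, 52.8 to 66.2 in WT αMARCO and 50.2 to 65.6 in Unc93b1 3d/3d αMARCO. Klrk1 alone, which was not called between controls, was at 34.1 to 55.5 CPM over the 8 libraries. Of 18 nonclassical monocyte genes 9 were higher in WT control and 1 was lower, with sums of 2300 to 2302 CPM in WT control, 834 to 980 in Unc93b1 3d/3d control, 2080 to 2456 in WT αMARCO and 1239 to 1560 in Unc93b1 3d/3d αMARCO. Cd300e led that list, with 10586 and 11109 counts in WT control against 160 and 149 in Unc93b1 3d/3d control. Of 13 plasmacytoid dendritic cell genes tested, 3 were higher in WT control. Spib was among them and passed the filter on low counts only through the WT libraries. The sum over that list was 1023 to 1079 CPM in WT control and 973 to 997 in Unc93b1 3d/3d control. No T cell, NK cell or nonclassical monocyte gene was at 0 in both libraries of a group. The part of these cells in the Cd79b, Ighm and Ighd differences was not tested.

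In WT under αMARCO, all 16 T cell genes and 7 of 11 NK cell genes tested were lower, 8 of 18 nonclassical monocyte genes were lower and 2 higher, and 3 of 13 plasmacytoid dendritic cell genes were lower. Of 14 macrophage genes 4 were lower and 1 higher there, and 5 lower and 1 higher in WT control relative to Unc93b1 3d/3d control. Of the neutrophil genes tested, 1 of 7 was higher in WT control and 3 of 5 were lower under αMARCO in WT, and of 3 mammary epithelial genes none was called between controls and 2 were lower under αMARCO in WT. Among all genes, 8.91% were called higher and 11.8% lower under αMARCO in WT. The part of these cells in the Cd79b and Igha changes was not tested.

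Cd79b lies at chr11:106311341-106314762 on the minus strand of GRCm38, and the tables place 5 genes within 50 kb. Psmc5, a proteasome subunit, and Smarcd2, a chromatin remodeling subunit, were expressed at 86.7 to 147 and 97.5 to 129 CPM, and neither was called in any comparison. Psmc5 had a log2 fold change of -0.34 in WT under αMARCO and of 0.29 between the control groups, the directions of Cd79b at a smaller size, and Smarcd2 of -0.10 and 0.18. Tcam1, Gh and Scn4a had at most 11 counts in a library. In the same build the immunoglobulin heavy chain members lie together, Igha at chr12:113254830-113260236, Ighd at chr12:113406604-113416324 and Ighm at chr12:113418558-113422730, all on the minus strand. Cd79a lies at chr7:24897381-24902197 and Igkc at chr6:70726435-70726966, both on the plus strand. Ms4a1 lies at chr19:11249675-11266241, Pax5 at chr4:44524757-44710487 and Jchain at chr5:88519809-88527891, all on the minus strand. Cd79a, Cd79b, Ighm, Ighd, Igha and Jchain overlap no other annotated gene, while Ms4a1 overlaps 1, Pax5 overlaps 4 and Igkc overlaps 1, and whether counting used strand is not given in the sources used here, so reads of those 3 genes and their partners may be mixed.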

How the data were processed

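Poly-A RNA of sorted TAMs was sequenced in 8 libraries. Per the labels and methods, the authors used fastp for cleaning, HISAT2 2.0.5 for alignment, featureCounts 1.5.0 for gene counts and DESeq2 1.40.2 for their own comparisons. The deposited raw counts and the deposited FPKM came in 3 tables, each on a pair of groups. Columns of size-factor-scaled values and of the authors' fold changes, p-values and adjusted p-values were not used. Tables were joined by gene identifier: 95230 counts were in more than 1 table and 0 differed. A gene missing from a table had at most 1 count in shared libraries and was set to 0, which is how Igha is 0 in the Unc93b1 3d/3d controls. The control groups share no table, so their comparison rests on the joined raw counts. Build GRCm38 follows the submitters' processing notes.

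Counts were tested with edgeR 4.0.16 (TMM, filterByExpr, robust quasi-likelihood F test, Benjamini-Hochberg over all genes tested) in R 4.3.3, with 4 libraries per comparison and 8 for the difference of effects. Thresholds were an adjusted p of 0.05 and a log2 fold change of 0.5 in size. DESeq2 1.42.0, other filters, scalings, a replicate block and leaving out libraries were alternatives. Scripts were tested on simulated data. With 2 against 2 libraries an exact two-sided permutation test cannot go below p = 0.333, so none is given. p-values measure the spread between 2 libraries a group. Where leaving out a library leaves 1 in a group, that group adds no spread, and the p-value rests on the other libraries. Depth, at 15182618 to 26411936 counts, leaves 7 of the 9 genes under 100 counts in every library, and intervals cover counting error only.

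The members and the gene lists were chosen with earlier results of these data known. The text names the 9 members, up to 6 called genes without overlap per B-lineage list and direction with Cd22, Fcrl5, Sdc1, Ebf1 and Blk in any case, up to 3 called genes of other lists, the 10 genes most like Cd79b, its neighbors within 50 kb and the 5 most counted V segments. Ighg2b, Ighv8-12, Cd74, Cd40, Cd4, Klrk1, Tnfrsf13b, Bank1 and the other defining B cell genes were named after their values were seen. 1 further gene of the rule is not reported here.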

Additional observations from a re-analysis of the deposited data

Results flagged for a closer look

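For 3 of the 9 genes, both WT αMARCO libraries lay below both WT controls while both Unc93b1 3d/3d αMARCO libraries lay above both Unc93b1 3d/3d controls. The share of all genes with this pattern was not counted, so whether 3 of 9 is unusual cannot be read from it. Of all 16620 genes, 15.3% had an unadjusted p of at most 0.05 by edgeR for the difference of effects. The difference of the αMARCO effects, WT less Unc93b1 3d/3d, was -2.18 on the log2 scale for Cd79b (adjusted p = 0.281 by edgeR), -1.49 for Ighm (adjusted p = 0.318) and -2.34 for Ighd (adjusted p = 0.322). None passed the threshold over all genes with all 8 libraries. Cd79b passed with DESeq2 (-2.15, adjusted p = 0.000832), without a filter (-2.17, 0.00222) and without the first (-2.50, 5.09e-06) or second (-1.81, 0.0032) Unc93b1 3d/3d αMARCO library, over a range of 5.09e-06 to 0.656. Ighm passed with DESeq2 (-1.47, adjusted p = 0.031), without a filter (-1.48, 0.0341) and without the first of these libraries (-1.78, 0.00694), over a range of 0.00694 to 0.656. Ighd passed under none of its 11 alternatives (0.116 to 0.656), and it rests on 3 to 19 counts per library.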

How the results depend on the processing

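Of 558 refits of single genes, 455 kept direction and call, 43 lost the call, 40 gained it and 20 changed sign. Fitting all 8 libraries in one model cut the calls in WT under αMARCO from 3236 to 164 (45 higher, 119 lower; members 2 to 0) and between controls from 2025 to 364 (249 higher, 115 lower), and gave 1 in Unc93b1 3d/3d under αMARCO and 108 (1 member) between genotypes under αMARCO. A fold threshold of 1 left 1366 in WT and 951 between controls, and none gave 5487 in WT. Without a filter, 174, 107 (2 members) and 152 (2 members) genes were called in Unc93b1 3d/3d, under αMARCO and for the difference of effects, and DESeq2 gave 52, 195 (3) and 200 (2). At 10 counts in every library 1 member was called in WT. Leaving out a library gave 1940 to 3951 calls in WT (1 to 5 members), 1 to 5500 in Unc93b1 3d/3d (0 to 3), 17 to 6366 under αMARCO (0 to 5), 1493 to 2232 between controls (1 to 3) and 0 to 6440 for the difference of effects (0 to 3). A group left with 1 library is assumed to vary like the other.

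Libraries of 1 number share only that number: their deviations correlated at -0.0188 to 0.153. With the replicate block, 3086 genes were called in WT and 2395 between controls, Ighd between controls lost its call (adjusted p = 0.0518 by edgeR, range 0.0465 to 0.212), Ighm in WT gained one (-0.67, 0.00262, range 1.25e-07 to 0.405), 5 genes were called in Unc93b1 3d/3d under αMARCO and 97 (1 member) under αMARCO, and Igkc in WT turned to 0.15, Ms4a1 in Unc93b1 3d/3d to 0.18, Pax5 there to -0.45 and Pax5 under αMARCO to 0.29. Leaving out a library, log2 values that changed sign ran from -1.03 to 1.94 for Igkc in WT, -0.74 to 1.32 for Ms4a1 and -2.48 to 0.95 for Pax5 in Unc93b1 3d/3d, -1.02 to 2.43 for Pax5 under αMARCO, -0.87 to 1.37 for Ms4a1 between controls, and for the difference of effects -0.44 to 1.81 (Ms4a1), -0.41 to 2.56 (Igkc) and -3.69 to 5.25 (Jchain). At 3 counts in some library 16 V segments were detected, at 1 count 25 and at 10 counts 6, and Spearman's rho kept 2 of the 10 genes most like Cd79b. The causes were not tested.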
